A study of Mus musculus with 12 samples.

Results

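The 9 genes that mark newborn neurons and dividing cells in the adult mouse brain described here are Dcx, Sox11, Sox4, Igfbpl1, Mki67, Top2a, Eomes, Neurod1 and Cd24a. They were taken by symbol, and all 9 were found among the 56748 genes of the count table and passed the filter on low counts, which left 17995 genes for testing. The libraries were RNA sequencing of what the series calls adult forebrain and the sample labels call brain, in 4 groups of 3 libraries each. These were Notch conditional knockout mice exposed before birth to valproic acid (exposed knockout), wildtype mice exposed before birth to valproic acid (exposed wildtype), knockout mice without the drug (unexposed knockout) and wildtype mice without the drug (unexposed wildtype). Valproic acid (VPA), a drug against epilepsy that inhibits histone deacetylases, is given to pregnant rodents to model autism. The labels call the knockout htr3a Notch KO. The Notch gene removed, the Cre driver, strain, exact age, sex, dose and day of exposure, and whether a library is 1 animal, are not stated in the labels, so that p-values measure the spread between libraries, which may be technical.

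Total counts ranged from 16887885 to 24944681 per library. As a check of the tissue, the 12 markers of striatal projection neurons, a forebrain cell type, were all tested and summed to between 933.5 and 1820 CPM (counts relative to library size) in every library. Xist, the RNA made from the inactive X chromosome of females, had 6 counts in exposed knockout replicate 3 and 12 in exposed wildtype replicate 3, against 5919 to 10767 in the other 10 libraries. Ddx3y, a gene of the Y chromosome, had 925 and 829 counts in these 2 libraries and 0 to 2 in the other 10. Libraries lacking Xist, which thus hold male RNA, were found in the exposed groups only, so that sex is partly confounded with exposure. Unexposed wildtype replicate 3 and unexposed knockout replicate 3 were the highest of the 12 libraries in olfactory bulb markers, at 652.4 and 510.7 summed CPM over 14 genes, and the main results that rest on them are given with and without them.

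New neurons form in the adult mouse forebrain in the subventricular zone, from which neuroblasts migrate to the olfactory bulb, and in the dentate gyrus of the hippocampus. Dividing progenitors express cell cycle genes, committed neuroblasts switch on SoxC factors and the microtubule protein doublecortin, and these genes are lost as the neurons mature. Notch signalling is known to keep neural stem cells undifferentiated. In these bulk samples, fewer cells of a type and less RNA per cell cannot be told apart.

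Among the 7 genes whose promoters were in the RefSeq table, the dividing-cell genes Mki67 and Top2a were the only ones with 2 matches to a cell cycle motif. Their promoters are printed beside that of Eomes, the member with the widest range of levels, which has no such match. CCAAT (the site of the factor NF-Y) and TTTGAA (the core of the cell cycle homology region) were searched on both strands in the 250 bases before each RefSeq gene start (mouse build GRCm38.p6), and their matches are in capitals, also where they read in reverse as ATTGG or TTCAAA. None of the capitalised matches overlaps another. Each sequence runs 5′ to 3′ on the strand of its gene.
Mki67 (chr7:135716380-135716629, minus strand): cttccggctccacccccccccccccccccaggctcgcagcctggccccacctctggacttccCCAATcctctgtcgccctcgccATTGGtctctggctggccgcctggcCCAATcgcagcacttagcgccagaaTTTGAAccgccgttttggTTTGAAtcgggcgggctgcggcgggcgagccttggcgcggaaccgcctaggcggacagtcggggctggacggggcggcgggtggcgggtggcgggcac
Top2a (chr11:99024190-99024439, minus strand): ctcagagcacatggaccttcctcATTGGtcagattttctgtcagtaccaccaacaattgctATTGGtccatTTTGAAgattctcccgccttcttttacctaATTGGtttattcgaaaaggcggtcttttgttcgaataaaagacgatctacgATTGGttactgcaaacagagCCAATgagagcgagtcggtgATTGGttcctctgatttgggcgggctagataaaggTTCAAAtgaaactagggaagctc
Eomes (chr9:118477939-118478188, plus strand): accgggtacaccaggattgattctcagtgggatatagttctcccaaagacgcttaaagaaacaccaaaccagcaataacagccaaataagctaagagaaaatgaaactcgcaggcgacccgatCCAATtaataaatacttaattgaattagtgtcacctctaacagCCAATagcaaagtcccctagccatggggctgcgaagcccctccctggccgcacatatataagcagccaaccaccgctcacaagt

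The Top2a window held 6 CCAAT and 2 TTTGAA matches and the Mki67 window 3 and 2. Of 32851 RefSeq promoter windows of this length, 2.79% held at least 3 CCAAT matches, 0.0578% at least 6, and 1.81% at least 2 TTTGAA matches. Sox4 had 4 CCAAT matches and no TTTGAA, Eomes 2 CCAAT and no TTTGAA, and Sox11 1 of each. Neurod1 had neither, and of the Dcx windows at its 2 listed starts 1 held a single CCAAT. In the background, 33.8% of windows held at least 1 CCAAT and 16% at least 1 TTTGAA. A match describes these letters only. The table covered 7 of the 9 genes, and Igfbpl1 and Cd24a were not among them.

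Per length of exon, Sox4 was the most abundant of the 9 genes, at a mean of 6.30 CPM per kb over the 12 libraries. Cd24a followed at 3.85, Neurod1 at 2.23, Sox11 at 1.86, Dcx at 1.24 and Igfbpl1 at 0.828 CPM per kb. The lowest were Eomes at 0.372, Top2a at 0.192 and Mki67 at 0.141 CPM per kb. Cd24a and Neurod1 were the only neighbours in this order whose ranges over the libraries did not overlap. Sox4 stood above Cd24a, and Sox11 above Dcx, in 12 of 12 libraries, although their ranges overlapped. The place of Eomes rests on a few libraries: its median was 0.103 CPM per kb, and it stood above Top2a in 4 of 12 libraries.

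**Figure D1:**
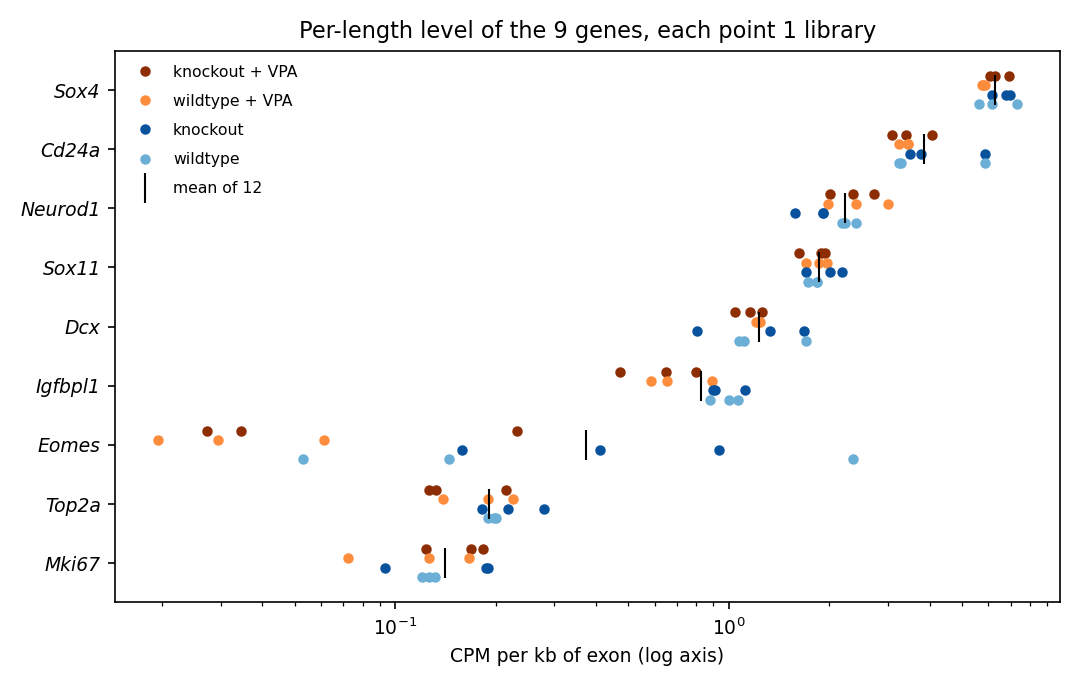
Level per kb of exon (horizontal, log axis) of the 9 genes, from Sox4 at a mean of 6.30 CPM per kb at the top to Mki67 at 0.141 at the bottom. Each point is 1 library, coloured by group, and the black bar is the mean of 12 libraries; the points of Eomes spread far more widely than those of any other gene.

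None of the 9 genes passed the test in any of the 6 comparisons set for these groups (edgeR quasi-likelihood test, Benjamini-Hochberg adjusted p below 0.05 over all tested genes). In the exposed against unexposed wildtype comparison 0 of 9 passed, where 0.895% of all tested genes did. In exposed against unexposed knockout 0 of 9 passed, with 0.0556% of all genes. For knockout against wildtype, 0 of 9 passed among unexposed mice (0.0389% of all genes) and 0 of 9 among exposed mice (0.05%). Exposed knockout against unexposed wildtype gave 0 of 9 (1.01% of all genes), and the interaction, which asks whether the VPA effect differed between genotypes, gave 0 of 9 (0%). At an unadjusted p below 0.05, 2 of 9 passed for VPA in wildtype, where 14.2% of all genes did, and 2 of 9 for VPA in knockout, where 14.9% did. The count was 1 of 9 for exposed knockout against unexposed wildtype (15.8% of all genes). It was 0 of 9 for knockout among unexposed mice (3.13%), for knockout among exposed mice (7.44%) and for the interaction (5.97%).

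Groups that did not overlap in any library were found for 0 of 9 genes for VPA in wildtype (20.8% of all genes) and for 2 of 9 for VPA in knockout (20.2%). Their number was 1 of 9 for knockout among unexposed mice (7.39%), 1 of 9 for knockout among exposed mice (13.2%) and 1 of 9 for exposed knockout against unexposed wildtype (21.1%).

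Because few genes passed within either genotype, VPA was also averaged over both genotypes, a comparison added after the data had been seen. It called 1 of 9, Igfbpl1, which was lower in exposed mice, where 5.99% of all tested genes were called. At an unadjusted p below 0.05 it held 3 of 9, against 21.8% of all genes. Knockout averaged over both treatments called 0 of 9 (0.05% of all genes), and 0 of 9 at an unadjusted p below 0.05 (4.42%).

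**Figure D2:**
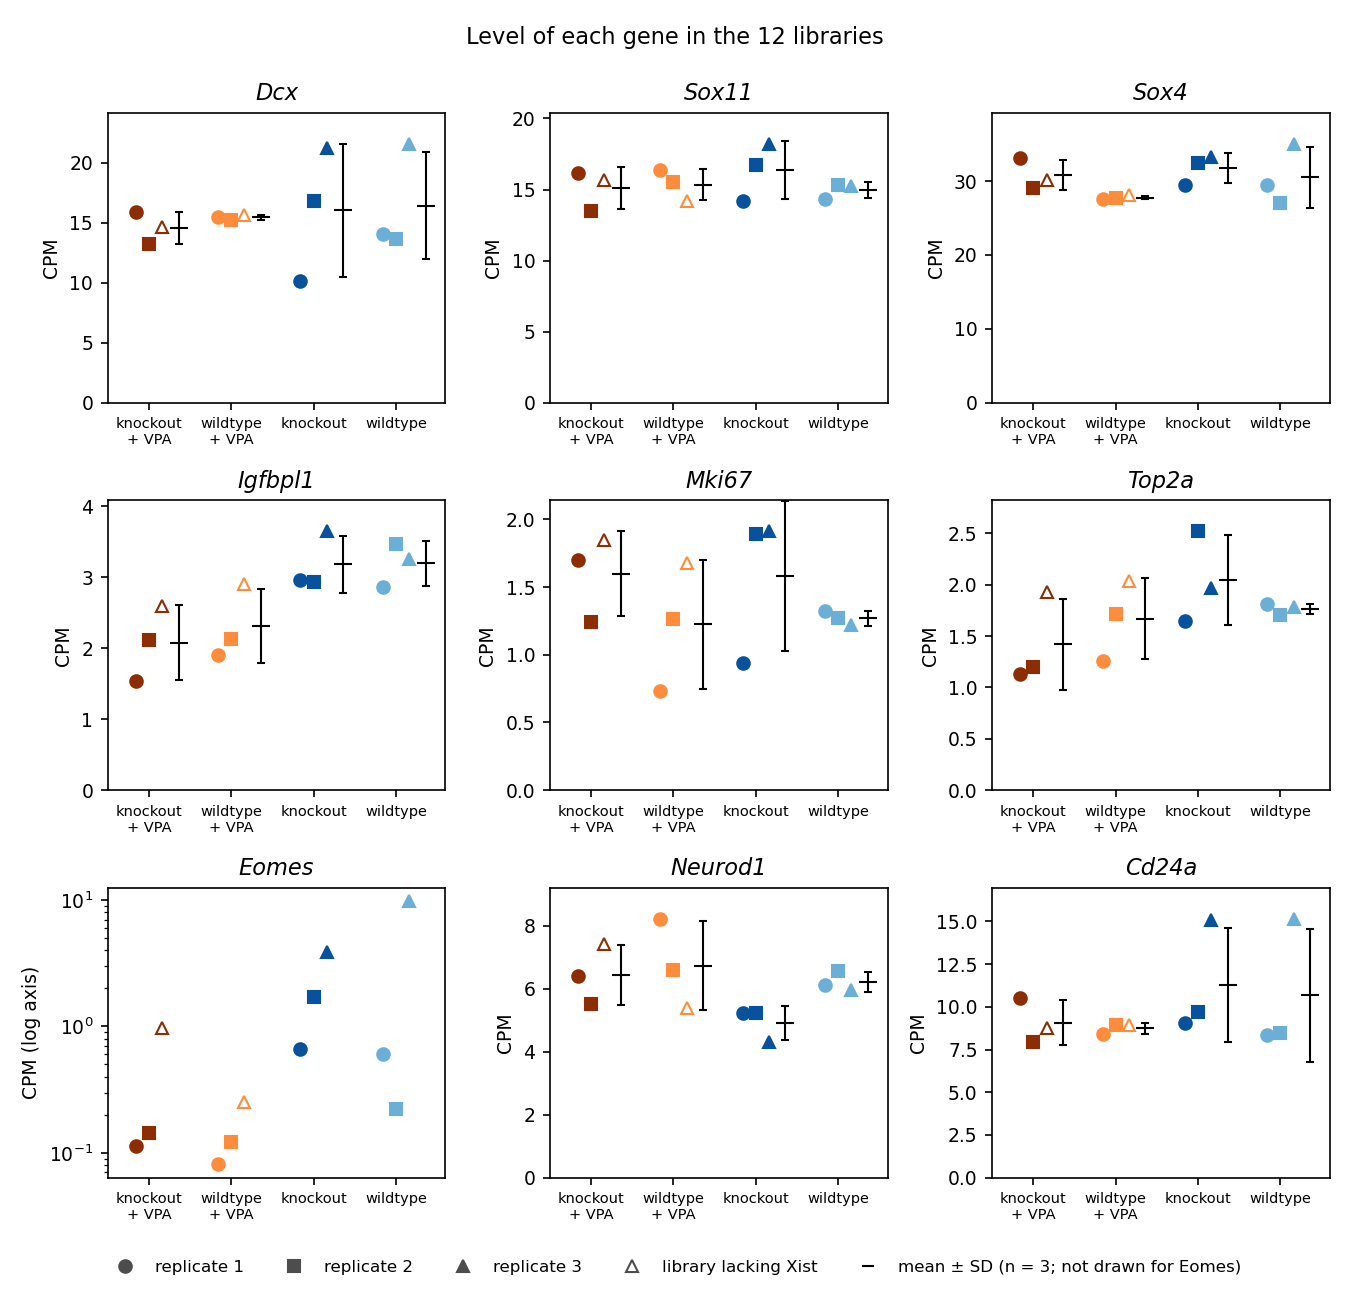
CPM (vertical, from 0 except for Eomes, which is on a log axis) of each gene in the 12 libraries, by group, with 3 replicates per group. Open triangles are the 2 libraries lacking Xist, and the black marks give the mean and SD; for Igfbpl1 the 6 exposed libraries lie at 1.53 to 2.90 CPM and the 6 unexposed ones at 2.85 to 3.64 CPM.

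Among the genes of committed neuroblasts, Dcx encodes doublecortin, a microtubule-binding protein needed for neuronal migration. It had 15.9, 13.2 and 14.6 CPM in exposed knockout, 15.5, 15.2 and 15.6 in exposed wildtype, 10.2, 16.8 and 21.2 in unexposed knockout and 14.1, 13.6 and 21.6 in unexposed wildtype. The exposed libraries lay within the range of the unexposed ones, which were wider: the SD was 1.34 and 0.199 CPM in exposed knockout and wildtype and 5.55 and 4.47 CPM in the unexposed groups. The Dcx log2 fold change was -0.09 ± 0.24 (SE, adjusted p = 0.915) for VPA in wildtype and -0.13 ± 0.25 (adjusted p = 0.857) for VPA in knockout by the edgeR test. Without unexposed wildtype replicate 3 the first turned to 0.16, and without unexposed knockout replicate 3 the second turned to 0.10. Without unexposed knockout replicate 1, the lowest library for Dcx, the second was -0.38 (edgeR adjusted p = 0.291).

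Sox11 and Sox4, the SoxC transcription factors that activate the neuronal programme, were the steadiest of the 9. Sox11 ranged from 13.5 to 18.2 CPM over all 12 libraries and Sox4 from 27 to 35. Sox4 had 33.1, 29.1 and 30.2 CPM in exposed knockout and 27.6, 27.7 and 28.1 in exposed wildtype. These groups did not overlap. The log2 fold change of Sox4 was 0.15 ± 0.09 (SE), its 95% interval ran from -0.04 to 0.33, and its adjusted p was 0.761 in the edgeR test. For VPA, the 95% intervals of Sox4 ran from -0.33 to 0.05 in wildtype and from -0.23 to 0.14 in knockout. Those of Sox11 ran from -0.19 to 0.26 and from -0.34 to 0.11. A Sox4 read may also stem from the non-coding Gm26735 on the opposite strand, since the strand setting of the counting is not given.

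Cd24a encodes a small surface protein of neuroblasts that ependymal cells carry as well. Its CPM values were 10.5, 7.95 and 8.79 in exposed knockout, 8.38, 8.91 and 8.91 in exposed wildtype, 9.04, 9.72 and 15.1 in unexposed knockout and 8.36, 8.49 and 15.2 in unexposed wildtype. Apart from replicate 3 of each unexposed group, the libraries lay between 7.95 and 10.5 CPM. The log2 fold change was -0.29 ± 0.24 (SE, adjusted p = 0.636) for VPA in wildtype and -0.31 ± 0.24 (adjusted p = 0.596) in knockout by the edgeR test. Without these 2 libraries it was 0.05 in wildtype and -0.05 in knockout. The 8 ependymal markers summed to 38.5 to 44 CPM in exposed knockout, 29.4 to 35.7 in exposed wildtype, 30.1 to 37 in unexposed knockout and 27.1 to 46.5 in unexposed wildtype, and their part in the Cd24a values was not tested.

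Igfbpl1 encodes a secreted protein related to the binding proteins of insulin-like growth factors and is used as a marker of newborn neurons. It had 1.53, 2.11 and 2.59 CPM in exposed knockout, against 2.96, 2.92 and 3.64 in unexposed knockout. In wildtype it had 1.9, 2.13 and 2.9 CPM in exposed libraries, against 2.85, 3.47 and 3.26 in unexposed ones. The knockout groups did not overlap, whereas in wildtype 1 exposed library lay just above the lowest unexposed one. In the libraries these values rest on 27 to 59 counts in exposed and 61 to 75 in unexposed mice.

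The Igfbpl1 log2 fold change for VPA was -0.47 ± 0.22 (SE, edgeR adjusted p = 0.343) in wildtype and -0.59 ± 0.23 (adjusted p = 0.224) in knockout, and the interaction was -0.12 ± 0.32 (adjusted p = 0.982). Averaged over both genotypes it fell by 0.53 ± 0.16 on the log2 scale, or 1.45-fold, with a 95% interval of -0.86 to -0.20. The adjusted p of 0.049998 in that edgeR test lay at the threshold. The mean over 6 exposed libraries was 2.19 ± 0.489 CPM and over 6 unexposed libraries 3.19 ± 0.323 CPM (SD). The call held in 10 of 22 other settings, with adjusted p between 0.0373 and 0.21, and in all of them the value was negative, between -0.72 and -0.45. It was lost when any of 10 libraries was left out in turn, the 2 exceptions being those lacking Xist, and without the 2 libraries highest in olfactory bulb markers (log2 fold change -0.47, adjusted p = 0.21). In each exposed group the library lacking Xist had the highest Igfbpl1 value. With both of them left out the log2 fold change was -0.72 (adjusted p = 0.0391 in edgeR).

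**Figure D3:**
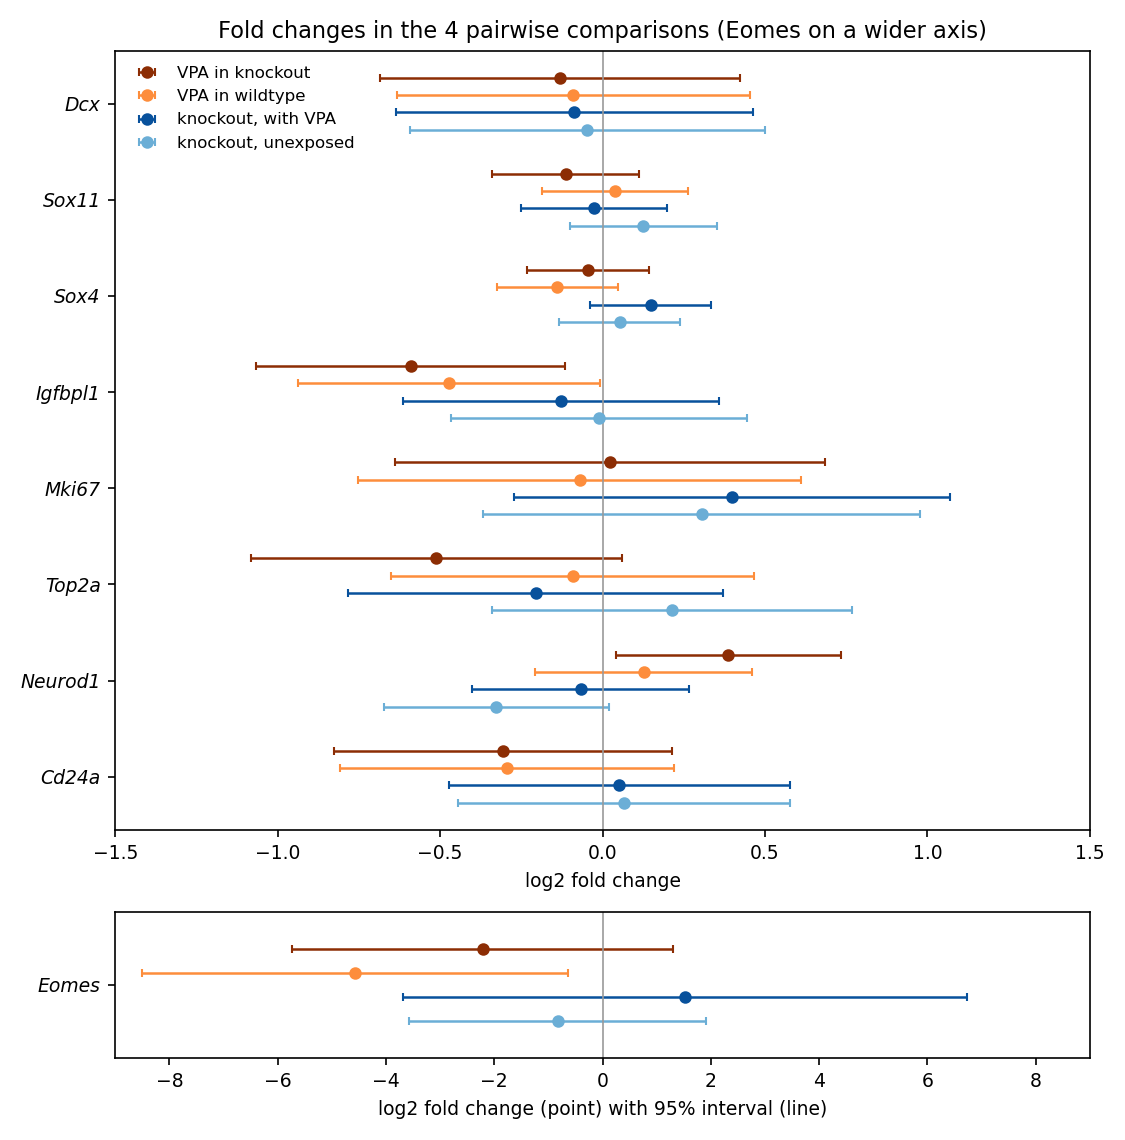
Log2 fold changes (horizontal) of the 9 genes in 4 pairwise comparisons, as points with 95% intervals from the edgeR fit, above 0 meaning higher in exposed (brown, orange) or in knockout mice (blues). Igfbpl1 lies below 0 in both VPA comparisons, at -0.59 in knockout and -0.47 in wildtype, and Eomes needs a wider axis because its intervals span several log2 units.

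Eomes (Tbr2) marks intermediate progenitors of glutamatergic neurons in the hippocampus, and mature mitral and tufted cells of the olfactory bulb express it as well. It varied more than any other of the 9 genes. Its counts were 2, 3 and 22 in exposed knockout, 2, 3 and 5 in exposed wildtype, 14, 38 and 65 in unexposed knockout and 15, 4 and 226 in unexposed wildtype. As CPM these are 0.114, 0.144 and 0.966 in exposed knockout and 0.081, 0.123 and 0.255 in exposed wildtype. In unexposed knockout they are 0.659, 1.71 and 3.88, and in unexposed wildtype 0.603, 0.221 and 9.81. Both pairs of exposed and unexposed groups overlap, and unexposed wildtype replicate 3 alone holds most of the counts of its group.

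The Eomes log2 fold change was -4.56 ± 1.71 (SE) for VPA in wildtype, with a 95% interval of -8.50 to -0.63 and an edgeR adjusted p of 0.275. Without unexposed wildtype replicate 3 it was -1.52 (adjusted p = 0.766). In knockout the VPA value was -2.22 ± 1.53 (adjusted p = 0.558), and without unexposed knockout replicate 3 it was -1.46. DESeq2 gave an adjusted p of 0.0491 for VPA in wildtype with a log2 fold change of -4.56. For knockout against wildtype the value was -0.82 ± 1.19 (edgeR adjusted p = 1) among unexposed mice, and it turned to 2.22 without unexposed wildtype replicate 3. Among exposed mice it was 1.53 ± 2.27 (adjusted p = 0.948), and it turned to -0.17 without exposed knockout replicate 3.

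The libraries high in Eomes were also high in olfactory bulb markers. Doc2g and Cdhr1, markers of mitral and tufted cells, had 32.1 and 37.1 CPM in unexposed wildtype replicate 3 and 20.7 and 24.7 CPM in unexposed knockout replicate 3. In the other 10 libraries Doc2g lay between 2.92 and 8.35 CPM. Tbx21, another such marker, had 2 and 1.49 CPM in these 2 libraries and 0 in 4 others. The 14 olfactory bulb markers, 13 of which were tested, summed to 338.8 to 362.9 CPM in exposed knockout, 319.5 to 346.1 in exposed wildtype, 398.9 to 510.7 in unexposed knockout and 405.8 to 652.4 in unexposed wildtype. Synpr and Meis2 held much of these sums, with means of 120 and 123 CPM in exposed and 184 and 163 CPM in unexposed wildtype. In knockout their means were 129 and 133 CPM in exposed and 172 and 151 CPM in unexposed libraries. For VPA the 13 tested olfactory bulb markers had a median log2 fold change of -1.27 in wildtype, with 2 genes that fell (Synpr and Meis2). In knockout their median was -0.77 with 0 called, against 0.01 over all tested genes in both genotypes. Without these 2 libraries the median was -0.24 in wildtype, where only Synpr was still called (log2 fold change -0.53, edgeR adjusted p = 0.00259; Meis2 -0.29, adjusted p = 0.179), and -0.33 in knockout with 0 called. The part of olfactory bulb tissue in the Eomes, Dcx and Cd24a values, and of other forebrain tissue in the Synpr and Meis2 values, was not tested.

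**Figure D4:**
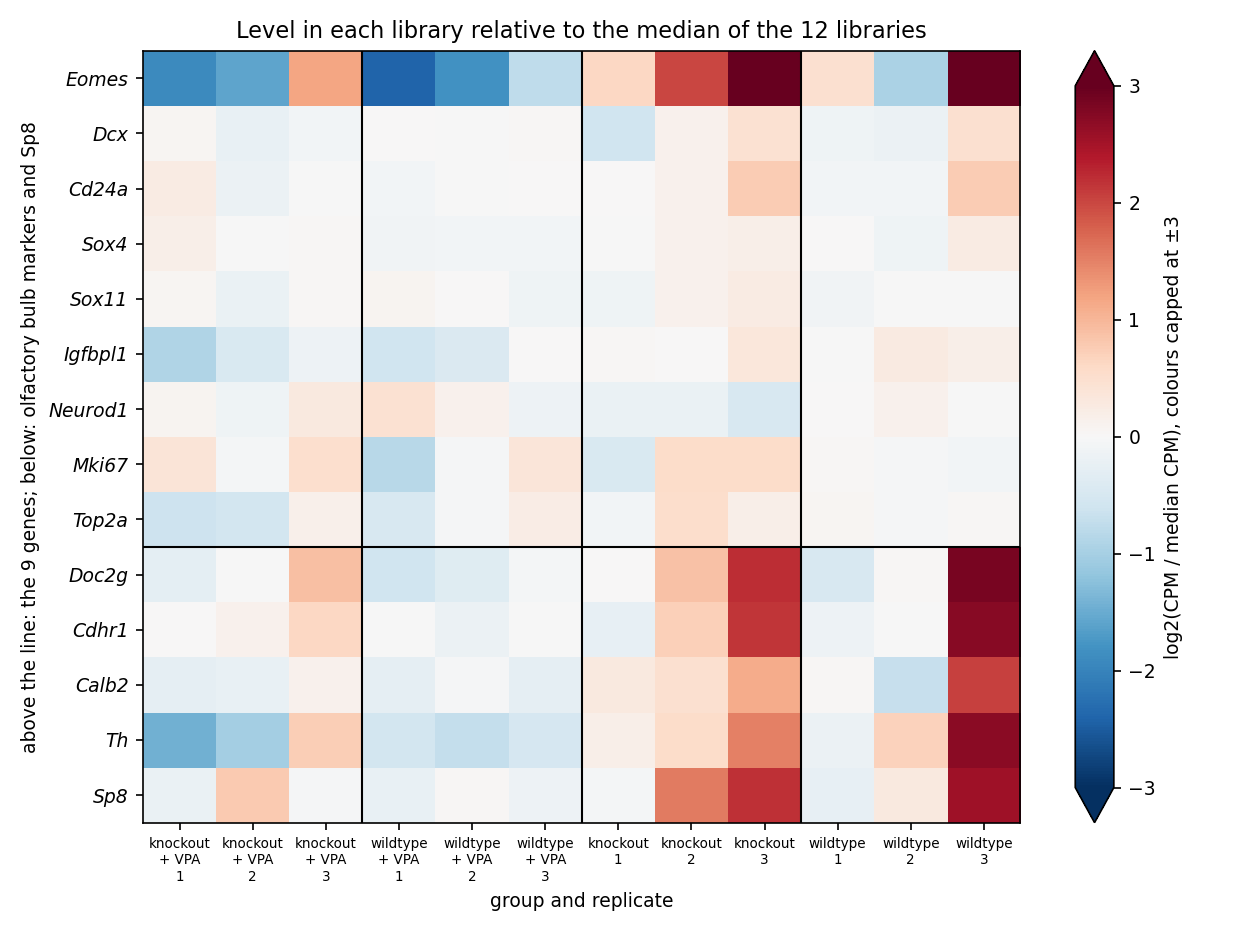
Log2 of each gene's CPM over its median in the 12 libraries (colour, capped at 3 in both directions), with the 9 genes above the line and olfactory bulb markers and the neuroblast gene Sp8 below it. Replicate 3 of unexposed wildtype and of unexposed knockout are red for Eomes, Dcx, Cd24a and the genes below the line, while Mki67 and Top2a are near their medians in unexposed wildtype replicate 3. In unexposed knockout replicate 3 Mki67 is at its highest of the 12 libraries, 1.91 CPM against a median of 1.30 CPM.

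Neurod1, a helix-loop-helix factor of differentiating granule neurons, had 6.42, 5.51 and 7.42 CPM in exposed knockout, 8.22, 6.58 and 5.4 in exposed wildtype, 5.22, 5.22 and 4.3 in unexposed knockout and 6.11, 6.56 and 5.95 in unexposed wildtype. Unexposed knockout was the lowest group, and it overlapped neither exposed knockout nor unexposed wildtype. The log2 fold change was 0.39 ± 0.17 (SE, edgeR adjusted p = 0.27) for VPA in knockout and -0.33 ± 0.17 (adjusted p = 1) for knockout among unexposed mice. It was 0.13 ± 0.16 for VPA in wildtype, and the interaction was 0.26 ± 0.23 (adjusted p = 0.927). The 7 dentate granule cell markers, among them Prox1, summed to 57.6 to 96.3 CPM in exposed knockout, 62.3 to 75.5 in exposed wildtype, 56.3 to 75.5 in unexposed knockout and 61 to 85 in unexposed wildtype. Neurod1 exons overlap those of Cerkl, which had 8 to 30 counts per library, and how reads in the overlap were assigned is not stated.

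Mki67 encodes Ki-67, a chromosome surface protein found in all dividing cells, and Top2a the topoisomerase that untangles DNA in mitosis. Both had few counts, 18 to 42 counts per library for Mki67 and 20 to 56 for Top2a. Mki67 had 1.7, 1.25 and 1.84 CPM in exposed knockout, 0.729, 1.27 and 1.68 in exposed wildtype, 0.941, 1.89 and 1.91 in unexposed knockout and 1.33, 1.27 and 1.22 in unexposed wildtype. Top2a had 1.14, 1.2 and 1.93 CPM in exposed knockout, 1.25, 1.72 and 2.04 in exposed wildtype, 1.65, 2.52 and 1.97 in unexposed knockout and 1.81, 1.71 and 1.78 in unexposed wildtype. All groups overlapped in the 4 pairwise comparisons within a genotype or a treatment. In both exposed groups the library lacking Xist was the highest for Mki67 and for Top2a.

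For Top2a the log2 fold change was -0.51 ± 0.28 (SE, edgeR adjusted p = 0.395) for VPA in knockout and -0.09 ± 0.27 (adjusted p = 0.924) in wildtype. For Mki67 it was 0.40 ± 0.33 (adjusted p = 0.844) for knockout among exposed mice and 0.31 ± 0.33 (adjusted p = 1) among unexposed mice. The 95% interval of Mki67 for VPA ran from -0.75 to 0.61 in wildtype and from -0.64 to 0.69 in knockout.

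The other genes of the same cells were taken from 3 lists. Of 23 further neuroblast and immature neuron genes, all tested, 1 fell and 0 rose for VPA in wildtype, and 1 fell and 0 rose for exposed knockout against unexposed wildtype. In both cases it was Dlx6, a homeobox gene of GABAergic neurons and their precursors. Dlx6 had 5.55, 5.52 and 4.89 CPM in exposed wildtype, against 7.68, 8.54 and 11.5 in unexposed wildtype. It had 5.51, 5.51 and 5.36 CPM in exposed knockout, against 9.84, 6.93 and 6.15 in unexposed knockout. All 6 exposed libraries lay below all 6 unexposed ones. However, Dlx6 was named for its calls in these same libraries, and the share of all tested genes separated likewise was not counted. The log2 fold change was -0.79 ± 0.17 (SE, edgeR adjusted p = 0.0244) for VPA in wildtype and -0.49 ± 0.17 (adjusted p = 0.188) in knockout. For exposed knockout against unexposed wildtype it was -0.76 ± 0.17 (adjusted p = 0.0312). Without unexposed wildtype replicate 3 neither call held, at -0.60 (adjusted p = 0.236) for VPA in wildtype and -0.57 (adjusted p = 0.226) for exposed knockout against unexposed wildtype. Leaving out unexposed wildtype replicate 2 or any exposed wildtype library also ended the call in wildtype, and leaving out any exposed knockout library ended the other, with log2 fold changes that stayed within 1.5-fold.

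In the added comparison over both genotypes, where 5.99% of all tested genes were called, 2 of the 23 genes fell. They were Dlx6, which fell by 0.64 ± 0.12 (SE, edgeR adjusted p = 0.00461) and Sp9, a zinc finger factor of the same lineage, which fell by 0.45 ± 0.11 (adjusted p = 0.0217) on the log2 scale. The call of Dlx6 held in 22 of 22 other settings, with adjusted p between 6.08e-06 and 0.0393, and that of Sp9 in 14 of 22. The median log2 fold change of the list was -0.07 for VPA in wildtype and -0.10 in knockout, against 0.01 over all tested genes in both. In the other 4 of the 6 comparisons 0 of the 23 passed. Neurod6 had, after Dlx6, the smallest p for VPA in knockout (log2 fold change -0.38, edgeR adjusted p = 0.198). For knockout the smallest p belonged to Dlx6 and Tubb2b among unexposed mice (adjusted p = 1 for both) and to Elavl4 (0.558) and Neurod6 (0.63) among exposed mice.

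Dlx6 and Sp9 are also used by GABAergic neurons of the striatum. For VPA, the values of Dlx6 and Sp9 were negative in both genotypes. So were nearly all values of striatal and of olfactory bulb markers. Whether these markers followed Dlx6 or Sp9 from library to library was not tested. The 12 striatal projection neuron markers summed to 940.1 to 1214 CPM in exposed knockout, 933.5 to 1037 in exposed wildtype, 1130 to 1820 in unexposed knockout and 1551 to 1621 in unexposed wildtype. For VPA, 7 of 12 fell in wildtype, Tac1 and Rxrg with the smallest p, and 0 of 12 passed in knockout. Of the 13 tested olfactory bulb markers, 12 had negative values for VPA in wildtype and 13 in knockout. Without the 2 libraries highest in these markers the numbers were 9 and 11. Dlx6 was highest, at 11.5 CPM, in unexposed wildtype replicate 3, the highest library in olfactory bulb markers. The striatal markers summed to 1582 CPM in that library. Among the unexposed knockout libraries Dlx6 was highest in replicate 1, which had the highest striatal sum of the 12 libraries, 1820 CPM. The olfactory bulb sum of that replicate, 398.9 CPM, was the lowest of the unexposed libraries. The part of either tissue in the Dlx6 and Sp9 values was not tested.

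Of 20 neural stem and transit amplifying genes, 18 were tested and 0 passed in any of the 6 comparisons. The smallest p for VPA in wildtype belonged to Egfr, a growth factor receptor of activated stem cells, with 18.4 ± 3.34 CPM in exposed wildtype and 14.3 ± 0.296 CPM in unexposed wildtype (SD, n = 3 each), a log2 fold change of 0.36 ± 0.11 (SE) and an edgeR adjusted p of 0.119. For VPA in knockout it belonged to Gfap, the filament protein of astrocytes and stem cells, with 437 ± 15.4 CPM in exposed knockout and 368 ± 29 CPM in unexposed knockout (log2 fold change 0.25 ± 0.08, edgeR adjusted p = 0.153). Next came Sox9 for VPA in wildtype (log2 fold change 0.22, adjusted p = 0.289) and Pax6 for VPA in knockout (0.22, adjusted p = 0.443). For knockout, Insm1 and Neurog2 had the smallest p among unexposed mice (adjusted p = 1 for both) and Gfap (0.41) and Egfr (0.708) among exposed mice. The list summed to 767.5 to 834.2 CPM in exposed knockout, 681.8 to 761.3 in exposed wildtype, 671.3 to 781.6 in unexposed knockout and 685.6 to 808.1 in unexposed wildtype, and the groups of each comparison overlapped except exposed knockout and exposed wildtype. Without Gfap, which had 437 ± 15.4 CPM in exposed knockout and 360 ± 32.7 CPM in exposed wildtype (SD, n = 3 each), these groups overlapped too, at 348 to 388 CPM in exposed knockout and 331 to 364 CPM in exposed wildtype. Choroid plexus markers were also higher in value in that comparison for 9 of 9 genes, with a median log2 fold change of 0.74 against 0.00 over all tested genes, and 1 of them, Cldn2, rose (edgeR adjusted p = 0.0431). They summed to 2608 to 3124 CPM in exposed knockout and 1343 to 2645 CPM in exposed wildtype. The 7 tested ependymal markers were all positive, with a median of 0.32 and 0 called. The part of these cells in the stem cell list was not tested.

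Of 35 cell cycle genes, 33 were tested and 0 passed in any of the 6 comparisons. For VPA the list median was -0.07 log2 units in wildtype and -0.11 in knockout, and for knockout it was 0.06 among unexposed and 0.08 among exposed mice. The smallest p for VPA in knockout belonged to Hmgb2, a chromatin protein of dividing cells, with 6.67 ± 0.236 CPM in exposed knockout and 9.40 ± 1.07 CPM in unexposed knockout (SD, n = 3 each; log2 fold change -0.49 ± 0.14, edgeR adjusted p = 0.128). For VPA in wildtype it belonged to Ccnb1, a mitotic cyclin, with 0.214 ± 0.0674 CPM in exposed wildtype and 0.615 ± 0.194 CPM in unexposed wildtype (log2 fold change -1.47 ± 0.56, adjusted p = 0.217). Next came Rrm2 for VPA in knockout (1.4 ± 0.49 CPM in exposed and 2.86 ± 1.25 CPM in unexposed knockout, SD, n = 3 each, edgeR adjusted p = 0.17) and Ccne2 for VPA in wildtype (log2 fold change -0.34, adjusted p = 0.304). For knockout, Mcm2 and Rrm2 had the smallest p among unexposed mice (adjusted p = 1 for both) and Ccna2 (0.679) and Mcm7 (0.717) among exposed mice. Over both genotypes 1 of the 33 genes fell, against 5.99% of all tested genes. It was the S phase cyclin Ccne2, which fell by 0.39 ± 0.11 on the log2 scale (edgeR adjusted p = 0.0335). Ccne2 lay between 4.7 and 5.56 CPM in the 6 exposed libraries and between 5.67 and 7.61 CPM in the 6 unexposed ones, and its call held in 11 of 22 other settings. Ccne2 was named for its call in this comparison, and the share of all tested genes separated likewise was not counted.

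The genes whose log2 CPM followed Eomes, Dcx or Mki67 most closely were sought among 13676 tested genes, by Pearson's r over the 12 libraries, which share depth and tissue composition. For Eomes these were Doc2g (r = 0.932), Pbx3 (0.928), Calb2 (0.925), Shisa8 (0.925) and Lgr6 (0.918), all 5 highest in unexposed wildtype replicate 3. Without replicate 3 of unexposed wildtype and of unexposed knockout, r over the other 10 libraries was 0.77 for Doc2g, 0.849 for Pbx3, 0.764 for Calb2, 0.759 for Shisa8 and 0.728 for Lgr6. For Dcx they included Cnot6 (r = 0.918), Sema3d (0.877), Ablim3 (0.858) and Eea1 (0.85). Each of these 4 was highest in replicate 3 of unexposed knockout or of unexposed wildtype, and without both r was 0.8, 0.744, 0.602 and 0.741 in the same order. For Mki67 they were Mttp (r = 0.858), Ndufb9 (0.856), Fbn2 (0.85), Rhbdl3 (0.846) and Slc9a2 (0.831). None was from the cell cycle list. Any of its genes averaging below 1 CPM were left out of the search, whereas others, such as Mcm7 and Hmgb2, were in it. Top2a, at a mean of 1.73 CPM, was in it too and was not among the 5. A place outside the 5 nearest does not tell how closely a gene followed Mki67.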

How the data were processed

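The deposited table held raw counts per Ensembl gene from 12 libraries, not normalized by the authors. Per the labels, ribosomal RNA was depleted before library preparation. HISAT2 and build GRCm39 are named per the submitters' processing notes; the counter, the annotation and the strand setting remain unstated. Symbols were attached to 52073 identifiers (99.51% of counts) from GENCODE M21 on GRCm38, which also gave exon lengths.

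Genes were kept by edgeR's filterByExpr and scaled by TMM (factors 0.93 to 1.02). Group means were fitted over the 12 libraries together by the robust quasi-likelihood method of edgeR 4.0.16 in R 4.3.3, with two-sided tests and Benjamini-Hochberg adjustment over 17995 genes; the common biological coefficient of variation was 0.0898. CPM uses the TMM-scaled library sizes. The method was run on simulated counts with planted changes, in which no library stood apart from its group. Its recovery of small changes is not reported here, so it does not bear on the genes that were not called. The 9 genes, lists and naming rule (list genes past the test, or the 2 with the smallest p) were chosen with earlier results of these data known. Likeness was sought among genes averaging 1 CPM or more, leaving out predicted ones, on log2 CPM with a prior count of 2; 1 of the 5 genes nearest to Dcx is not reported here. Alternatives were DESeq2 1.42.0, limma-voom 3.58.1, other scalings and filters, a replicate block, a term for the libraries lacking Xist, only the libraries compared, and libraries left out. Added after the data were seen were effects averaged over genotypes or treatments, and leaving out the 2 libraries highest in olfactory bulb markers or, from the stem cell sum, Gfap.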

Additional observations from a re-analysis of the deposited data

How the results depend on the processing

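Across 23 other settings, 1233 member fold changes were recomputed in the 6 comparisons and 2 passed the test, both Eomes for VPA in wildtype: the count of the 9 genes called became 1 under DESeq2 (adjusted p = 0.0491) and 1 under the replicate block (log2 fold change -3.99, adjusted p = 0.0476). It remained 0 in the other 5 comparisons under each setting run. Of all 1629 values, the added comparisons included, 98 changed sign, none of which had passed the test, and 39 moved by more than 1.5-fold, all of them Eomes; the cause was not tested. For VPA over both genotypes, where 1 gene was called, the count was 0 with upper-quartile factors, 2 without a count filter (Cd24a added), 2 under DESeq2 and 2 under the block (Eomes added), 0 without the 2 libraries highest in olfactory bulb markers, and 0 to 1 with each library left out.

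Of the neuroblast list, 1 gene was called for VPA in wildtype. The count was 2 without a count filter, 0 with a term for the libraries lacking Xist, 0 without both of them, 0 without the 2 olfactory bulb libraries, and 0 to 1 with each library left out. For exposed knockout against unexposed wildtype, where 1 was called, the same settings gave 3, 0, 0 and 0, and 0 to 1. Over both genotypes, where 2 were called, they gave 5, 1, 1 and 1, and 1 to 4. Without a count filter 1 neuroblast gene and 1 cell cycle gene were called for VPA in knockout, where 0 had been called. For cell cycle genes over both genotypes, where 1 was called, the count was 0 with that term, 0 without the libraries lacking Xist, 0 without the olfactory bulb libraries and 0 to 2 with each library left out; 1 stem cell gene was called without the olfactory bulb libraries. Calls over all genes ran from 14 to 512 for VPA in wildtype (161 as reported), from 2 to 391 in knockout (10), and from 31 to 649 for exposed knockout against unexposed wildtype (182). For knockout they ran from 6 to 15 (7) among unexposed and from 7 to 86 (9) among exposed mice, for the interaction from 0 to 5 (0), for VPA over both genotypes from 172 to 1453 (1078) and for knockout over both treatments from 7 to 46 (9).

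The replicate numbers are not known to pair libraries. Correlations of same-numbered libraries' deviations from their group means ran from -0.0623 to 0.115 over 18 pairs, 1 of them above 0.1. That pair was replicate 3 of unexposed wildtype and of unexposed knockout. Over 36 differently numbered pairs they ran from -0.123 to 0.112, with 1 above 0.1. Only 1 of 12 libraries correlated best with its own number in every group. The libraries lacking Xist and those highest in olfactory bulb markers were all replicate 3. Levels in CPM by total counts lay within 1 SD of the reported ones for 36 of 36 gene and group pairs. Mki67 and Top2a rest on 18 to 56 counts per library and 3 libraries per group.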
